A study of Rattus norvegicus with 28 samples.

Results

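The ERBB family of growth factor ligands and receptors was followed across mechanical ventilation and lung injury in the rat, through 9 genes chosen by name. The set holds 6 ligand genes, Areg, Ereg, Hbegf, Tgfa, Btc and Nrg1, and 3 receptor genes, Egfr, Erbb2 and Erbb3. Each of the 9 was found once, by symbol, among the 17002 genes of the table. The 28 libraries hold poly(A) RNA of Sprague Dawley rat lung, taken from the right upper lobe. After acute injury, lungs were ventilated with tidal volumes that varied between breaths (acute_noisy, n = 4) or with a constant tidal volume (acute_VCV, volume-controlled ventilation, n = 3). Chronically injured lungs were ventilated in the same 2 modes (chronic_noisy and chronic_VCV, n = 3 each), and so were uninjured lungs (healthy_noisy, n = 3, and healthy_VCV, n = 4). The unventilated groups were lungs taken 14 days after chronic injury was induced (control_chronic, n = 5) and uninjured lungs (control_blank, n = 3). The labels give neither the agent of either injury nor the length of ventilation, and no acutely injured lung was left unventilated, so acute injury is always read in ventilated lungs. They do not say whether each library is a separate animal, so the p-values measure the spread between these libraries.

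ERBB ligands are made as membrane-bound precursors and are set free by sheddases of the ADAM family, of which ADAM17 is the best known. Amphiregulin (Areg), epiregulin (Ereg), heparin-binding EGF-like growth factor (Hbegf), transforming growth factor alpha (Tgfa) and betacellulin (Btc) bind the EGF receptor (Egfr), whereas neuregulin 1 (Nrg1) binds ERBB3 and ERBB4. ERBB2 has no known ligand of its own and ERBB3 has little kinase activity of its own, so both signal in pairs with another receptor. In lung, EGF receptor signalling is best known for its part in the repair of the epithelium after injury, and amphiregulin is also made by immune cells.

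Levels are deposited values, which are read counts divided by 1 size factor for each library. They compare libraries for 1 gene and are not set against each other between genes, because they are not divided by gene length. Recovered depth ran from 6024093 reads in a control_chronic library to 31923838 reads in an acute_VCV library. Each title carries a number whose first digits are 12, 14, 15 or 18, here called the number series, which the labels leave unexplained. Series 12 holds all acute_VCV and control_blank libraries, and series 18 all control_chronic libraries. Series 14 holds all chronic_noisy, 3 of 4 healthy_VCV and 2 of 4 acute_noisy libraries, and series 15 holds the others, so that most comparisons between groups are also comparisons between series. Of the comparisons with unventilated lungs, acute_VCV against control_blank stays within 1 series. Markers of alveolar type 2 cells summed to 271310.0 or more in every library. Changes are log2 differences ± SE of deposited values plus 1, from limma fitted over 14908 genes, with p-values adjusted over all of them by the Benjamini-Hochberg method and called under 0.05. With a mean of 4.70, Btc did not reach the minimum mean of 10 and was not tested, which leaves 8 tested members.

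Acutely injured, ventilated lungs held more Areg than unventilated uninjured lungs, 6.01-fold in acute_noisy and 12.4-fold in acute_VCV, and Ereg, Hbegf, Nrg1 and Tgfa rose with it. Of the 8 tested members, 6 were called between acute_VCV and control_blank (5 higher, 1 lower), where 37.3% of all tested genes (20.6% higher and 16.7% lower) were called. Between acute_noisy and control_blank all 8 tested members were called (7 higher, 1 lower), but so were 59.8% of all tested genes (31.3% higher and 28.4% lower). The median change of the tested members was 1.20 in acute_VCV and 1.55 in acute_noisy, beside 0.07 and 0.03 over all genes. Both comparisons use the same 3 control_blank libraries.

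Areg (ENSRNOG00000002754) had 239, 487, 358 and 198 in acute_noisy, 848, 485 and 591 in acute_VCV and 79.4, 18.8 and 79.1 in control_blank. All 7 acutely injured lungs lay above all 3 unventilated uninjured ones, with no overlap. The increase over control_blank was 3.63 ± 0.69 (adjusted p = 0.000278) in acute_VCV and 2.59 ± 0.64 (adjusted p = 0.00148) in acute_noisy. In acute_noisy the libraries of series 14 had 358 to 487 and those of series 15 had 198 to 239. Taken alone, each pair was still above control_blank, by 3.06 (adjusted p = 0.00164) for series 14 and 2.12 (adjusted p = 0.033) for series 15. In whole tissue, more cells that make a transcript and more transcript in each cell cannot be told apart.

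The 250 bases upstream of the start of Areg are shown because it had the largest change of the ligands in acute_VCV, beside those of Hbegf, which moved with it. They are RefSeq sequences of build GRCr8, on the minus strand in both cases, at chr14:17265642-17265891 for Areg and chr18:28390221-28390470 for Hbegf, whereas the deposited table was made on build rn4. Capitals mark matches, on either strand, to the CRE motif TGACGTCA, the AP-1 motif TGANTCA, the TEAD motif GGAATG, the TATA motif TATAAA, or the NF-kB and CArG motifs.
Areg: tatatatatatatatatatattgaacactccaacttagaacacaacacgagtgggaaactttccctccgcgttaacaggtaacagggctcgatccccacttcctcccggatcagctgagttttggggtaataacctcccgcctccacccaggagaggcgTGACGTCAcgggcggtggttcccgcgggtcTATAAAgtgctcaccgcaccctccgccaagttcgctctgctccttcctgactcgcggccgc
Hbegf: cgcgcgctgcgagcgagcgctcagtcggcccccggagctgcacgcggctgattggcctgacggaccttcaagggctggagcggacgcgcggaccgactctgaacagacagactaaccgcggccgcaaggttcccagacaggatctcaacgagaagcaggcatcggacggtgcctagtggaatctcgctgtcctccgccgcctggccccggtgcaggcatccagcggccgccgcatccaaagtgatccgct
Areg holds 1 CRE match and 1 TATA match, and the motifs do not overlap each other. Of 33469 RefSeq windows of this length, 1.59% hold the CRE motif and 12.9% the TATA motif. The AP-1, TEAD, NF-kB and CArG motifs are found in 6.34%, 12.1%, 6.33% and 1.497% of them. The letters of none of these 6 motifs occur in the Hbegf window. Among the protein-coding genes of that assembly, Btc, Areg, Ereg and Epgn follow each other on chromosome 14.

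Ereg (ENSRNOG00000002771), the gene next to Areg, had 51.4, 124, 143 and 40.3 in acute_noisy and 67.8, 91.2 and 113.1 in acute_VCV, against 5.67, 3.87 and 19.97 in control_blank. It rose by 3.35 ± 0.87 (adjusted p = 0.00406) in acute_VCV and by 3.17 ± 0.81 (adjusted p = 0.00192) in acute_noisy, with no overlap between groups. The 2 acute_noisy libraries of series 15 were the lower ones, and taken alone they differed from control_blank by 2.40 (adjusted p = 0.0504).

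Hbegf (ENSRNOG00000018646), whose precursor is also the diphtheria toxin receptor of human cells, had 322, 828, 552 and 409 in acute_noisy and 652, 675 and 849 in acute_VCV, against 165, 198 and 197 in control_blank. Its lowest acutely injured lung was above every unventilated uninjured lung. The change was 1.95 ± 0.37 (adjusted p = 0.000321) in acute_VCV and 1.41 ± 0.35 (adjusted p = 0.00147) in acute_noisy, and 0.96 (adjusted p = 0.0525) for the acute_noisy libraries of series 15 alone.

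Tgfa and Nrg1 rose in both acutely injured groups too. Tgfa (ENSRNOG00000016182) had 634, 465, 482 and 387 in acute_noisy, 532, 570.1 and 601 in acute_VCV and 344, 285 and 279.6 in control_blank, a rise of 0.68 ± 0.19 (adjusted p = 0.00363) and 0.91 ± 0.20 (adjusted p = 0.00121) over control_blank. Nrg1 (ENSRNOG00000010392) had 211, 295, 256 and 229.8 in acute_noisy, 248, 191 and 307 in acute_VCV and 66.5, 86.3 and 139.8 in control_blank. It rose by 1.39 ± 0.29 (adjusted p = 0.000298) in acute_noisy and 1.38 ± 0.31 (adjusted p = 0.00129) in acute_VCV, and for both genes the acutely injured lungs did not overlap control_blank. Btc (ENSRNOG00000002728) stayed near the detection limit, at up to 10.8 in acute_noisy, 10.6 in acute_VCV and 3.24 in control_blank, from 2 to 19 reads per library in these groups.

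**Figure D1:**
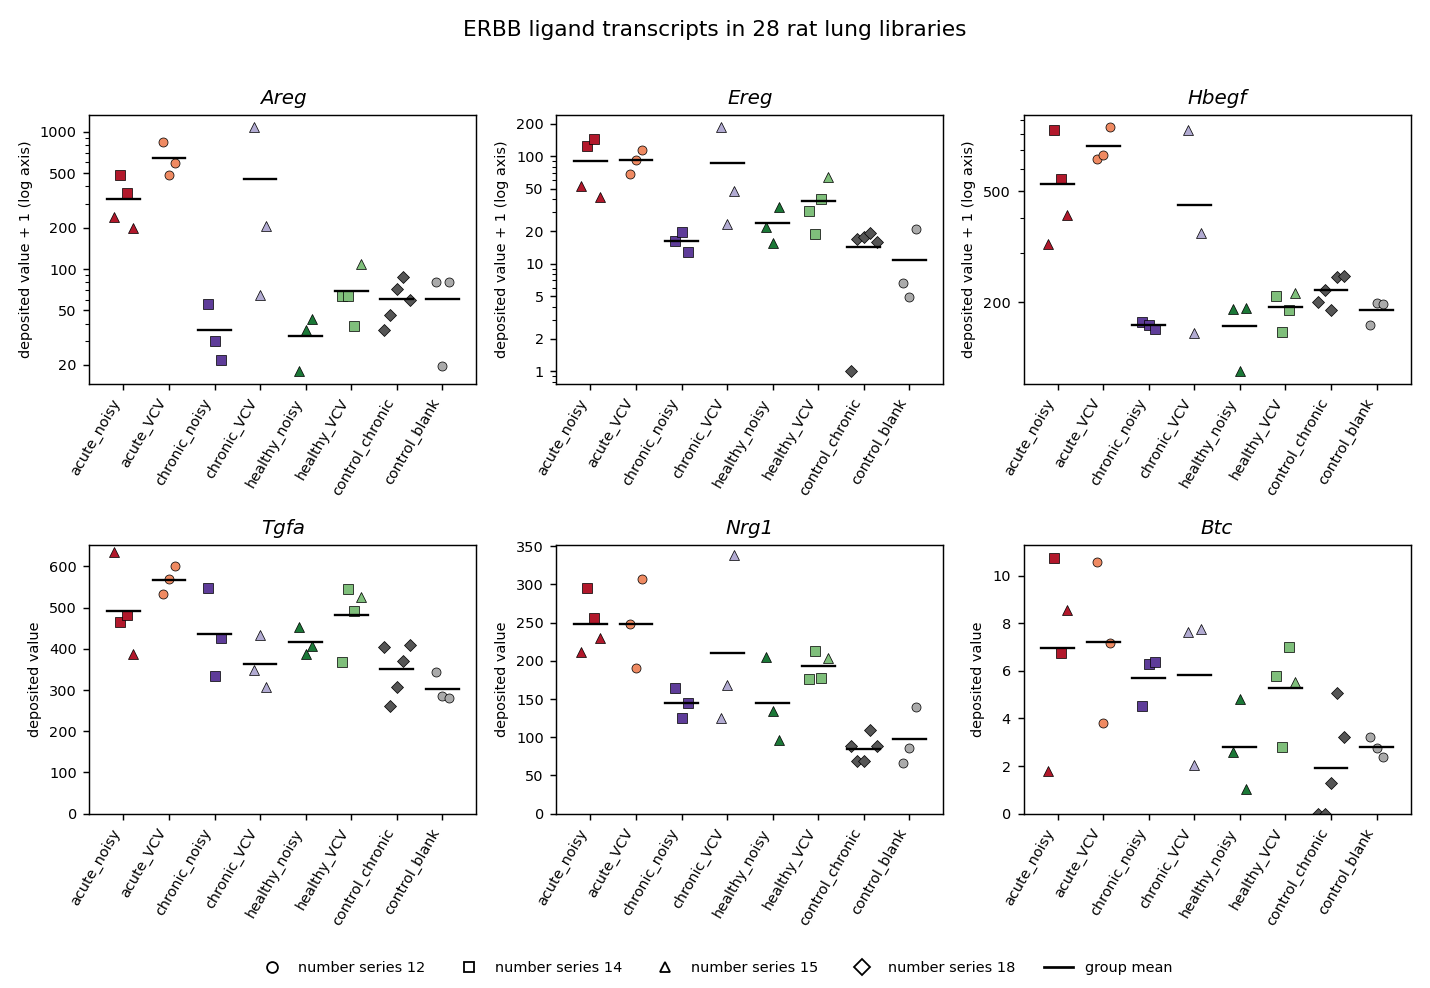
Deposited value of each ligand gene (vertical axis, log scale of the value plus 1 for Areg, Ereg and Hbegf, linear for Tgfa, Nrg1 and Btc) in the 8 groups (horizontal axis), 1 point per library with its number series as the shape and the group mean as a bar. The acutely injured groups stand high for Areg, at 198 to 487 in acute_noisy and 485 to 848 in acute_VCV, and chronic_VCV spans 63.9 to 1087.

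Acute injury was then set against ventilation without injury. Between acute_VCV and healthy_VCV 5 of 8 tested members were called, 2 higher and 3 lower, against 52.5% of all tested genes (26.1% higher and 26.4% lower). Areg rose by 3.28 ± 0.64 (adjusted p = 0.000176) and Hbegf by 1.92 ± 0.35 (adjusted p = 8.54e-05), with 63.0, 62.9, 37.7 and 107 for Areg and 209.6, 156, 187 and 214 for Hbegf in healthy_VCV, below every acute_VCV library. Ereg had 29.8, 17.9, 39.4 and 63.2 in healthy_VCV, also without overlap, but its difference of 1.36 ± 0.81 (adjusted p = 0.16) did not pass the test. The differences of Nrg1 and Tgfa were 0.34 ± 0.29 (adjusted p = 0.33) and 0.25 ± 0.19 (adjusted p = 0.28). No number series holds both groups, so series and injury cannot be told apart here.

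In the variable mode, between acute_noisy and healthy_noisy, 4 of 8 members were called (3 higher, 1 lower), against 26.7% of all tested genes (12.9% higher and 13.9% lower, so that the higher share of the called genes was 48.2% by limma, beside 63.6% by edgeR with TMM scaling). Areg had 17.0, 35.0 and 41.9 in healthy_noisy and was 3.32 ± 0.64 (adjusted p = 0.00135) higher in acute_noisy. Hbegf had 188, 112 and 189 in healthy_noisy and was 1.64 ± 0.35 (adjusted p = 0.00261) higher in acute_noisy, and Nrg1 0.83 ± 0.29 (adjusted p = 0.0378) higher. Ereg was at 1.81 ± 0.81 (adjusted p = 0.0953), and for all 4 of these ligands the groups did not overlap. The Nrg1 call was lost without acute_noisy_047, acute_noisy_050, healthy_noisy_061 or healthy_noisy_078, with adjusted p up to 0.59 over the alternatives. Within series 15, with 2 acute_noisy and 3 healthy_noisy libraries, Areg stood at 2.85 (adjusted p = 0.12) and Hbegf at 1.19 (adjusted p = 0.26). With the series as a covariate, Areg was at 3.27 (adjusted p = 0.0439) and Hbegf at 1.43 (adjusted p = 0.1).

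Other cell type markers moved with the ligands in acute injury. The epithelial list was Epcam, Cdh1, Krt8, Krt18 and Krt19, of which 4 were found. All 4 were higher in acute_VCV than in healthy_VCV and than in control_blank, beside 26.1% and 20.6% of all tested genes. The summed level of the epithelial list was 35007 to 41703 in acute_noisy and 47504 to 65436 in acute_VCV. It was 18873 to 22135 in healthy_noisy, 17221 to 19826 in healthy_VCV and 21119.5 to 31210.0 in control_blank. The neutrophil list had 6 of 6 genes higher in acute_VCV than in control_blank, beside the same 20.6% of all tested genes. Its sums were 22950.5 to 91395 in acute_noisy and 29681 to 115477 in acute_VCV, against 2698 to 3104 in control_blank. Its sums in healthy_VCV were 19403 to 32806. No gene of either list was at 0 in any library, and the part of these cells in the ligand changes was not tested. In acute_noisy against control_blank 3 of 4 epithelial and 6 of 6 neutrophil genes were higher, beside 31.3% of all tested genes. Lists of single epithelial cell types did not rise in acute_VCV. Club sums were 186041 to 273758 there and 496765 or more in control_blank, and ciliated sums 649 to 1171 and 2755 or more. Alveolar type 1 sums were 76695 to 91820 in acute_VCV and 94583 to 108100 in control_blank, and alveolar type 2 sums overlapped.

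Ventilated uninjured lungs held more Egfr and Erbb3 transcript than unventilated ones, in both modes, while Areg and Hbegf did not pass the test. Between healthy_VCV and control_blank 5 of 8 members were called, all of them higher. The share called is close to the 57.4% of all tested genes called in either direction, of which 29.3% were higher and 28.1% lower. Between healthy_noisy and control_blank 2 of 8 were called, both higher, against 32.1% of all tested genes (17.5% higher and 14.6% lower). There the higher share of the called genes was 54.5% by limma, beside 42.1% by edgeR with TMM scaling. Areg differed by 0.35 ± 0.64 (adjusted p = 0.65) in healthy_VCV and -0.73 ± 0.69 (adjusted p = 0.43) in healthy_noisy, and Hbegf by 0.03 ± 0.35 (adjusted p = 0.95) and -0.23 ± 0.37 (adjusted p = 0.67). Both sets overlap control_blank for these genes. Ereg rose in healthy_VCV, by 1.99 ± 0.81 (adjusted p = 0.0387), a call that was lost without any 1 of 5 libraries (control_blank_016, control_blank_021, healthy_VCV_025, healthy_VCV_060 or healthy_VCV_062), with adjusted p up to 0.16. Nrg1 and Tgfa rose in healthy_VCV by 1.04 ± 0.29 (adjusted p = 0.00398) and 0.66 ± 0.19 (adjusted p = 0.00482). The healthy_VCV libraries are of series 14 and 15 and those of control_blank of series 12. Series and ventilation therefore cannot be told apart for these ligands either.

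**Figure D2:**
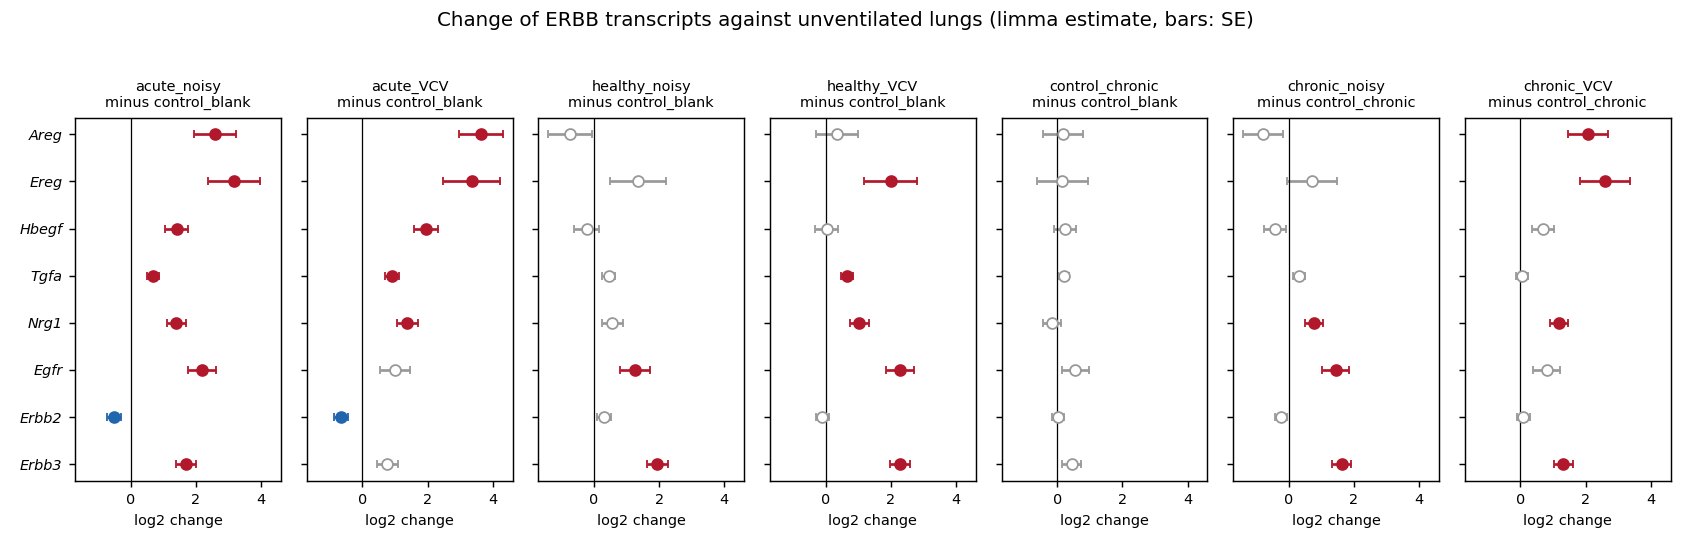
Log2 change ± SE (horizontal axis) of the 8 tested members (rows) for each ventilated group against unventilated lungs, and for control_chronic against control_blank. The chronic groups are set against control_chronic, and the healthy and acute groups against control_blank. Injury and ventilation therefore change together in the acute groups. Filled red points are higher and filled blue points lower at an adjusted p under 0.05, and open grey points were not called. Areg stands at 3.63 in acute_VCV and 2.59 in acute_noisy but at 0.35 in healthy_VCV, while Erbb3 is at 2.28 in healthy_VCV.

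Erbb3 (ENSRNOG00000004964), the receptor for neuregulins, had 2901, 2197 and 4013 in healthy_noisy and 2894, 5578, 3455 and 3440.0 in healthy_VCV, against 737, 657 and 922 in control_blank. Neither ventilated group overlapped control_blank. It rose by 2.28 ± 0.31 (adjusted p = 3.70e-06) in healthy_VCV and 1.95 ± 0.33 (adjusted p = 0.000216) in healthy_noisy. After acute injury it had 2309, 1928, 2592 and 3201 in acute_noisy and 901, 1412 and 1739 in acute_VCV. In acute_VCV it was below every healthy_VCV library, at -1.51 ± 0.31 (adjusted p = 0.000257), and differed from control_blank by 0.77 ± 0.33 (adjusted p = 0.0672), which did not pass the test. In acute_noisy it was 1.69 ± 0.31 (adjusted p = 7.64e-05) above control_blank.

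Egfr (ENSRNOG00000004332), the receptor of amphiregulin, had 229, 157 and 318 in healthy_noisy and 502, 480.1, 442 and 418 in healthy_VCV, against 81.8, 64.7 and 157 in control_blank. It rose by 2.28 ± 0.43 (adjusted p = 0.000117) in healthy_VCV and by 1.25 ± 0.46 (adjusted p = 0.0399) in healthy_noisy, where the lowest healthy_noisy library only just exceeded the highest control_blank library. The call in healthy_noisy was lost without control_blank_016, control_blank_021, healthy_noisy_029 or healthy_noisy_078, with adjusted p up to 0.16 over all alternatives. After acute injury Egfr had 281, 898, 711 and 186 in acute_noisy and 144, 172 and 281 in acute_VCV. The first group split by number series, with 711 to 898 in series 14 and 186 to 281 in series 15. Against control_blank it rose by 2.17 ± 0.43 (adjusted p = 0.000178) in acute_noisy, and its difference of 1.01 ± 0.46 (adjusted p = 0.0841) in acute_VCV did not pass. Against healthy_VCV it was lower in acute_VCV, at -1.26 ± 0.43 (adjusted p = 0.0164), a call lost without acute_VCV_040 or acute_VCV_045.

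Number series and receptor level ran together. Egfr spanned 335 to 898 in the 8 libraries of series 14 and 157 to 418 in the 9 of series 15, against 92.5 to 243 in the 5 of series 18 and 64.7 to 281 in the 6 of series 12. Erbb3 spanned 1928 to 5578 and 1485 to 4652 in series 14 and 15, against 771 to 1369 and 657 to 1739 in series 18 and 12. Series 12 and 18 hold all unventilated lungs and, of the ventilated ones, the acute_VCV lungs, so ventilation and series cannot be told apart for the receptor increases. The single healthy_VCV library of series 15 had 418 for Egfr and 3440.0 for Erbb3, beside 442 to 502 and 2894 to 5578 in the 3 of series 14. Markers of other cells moved with Egfr and Erbb3 in ventilated uninjured lungs. The neutrophil list had 6 of 6 genes higher in both modes, beside 17.5% of all tested genes in healthy_noisy and 29.3% in healthy_VCV. Its sums were 25366 to 33680.0 in healthy_noisy and 19403 to 32806 in healthy_VCV, against 2698 to 3104 in control_blank. Both club genes were lower in both modes, with sums of 236824 to 403807 in healthy_noisy and 159413 to 189952 in healthy_VCV, against 496765 to 1319040.0 in control_blank, and 2 of 3 ciliated genes were lower in each mode. Fibroblast sums were 48628 to 69956 in healthy_VCV and 21617 to 32032 in control_blank, with 2 of 5 genes higher, beside 29.3% of all genes. No gene of these lists was at 0 in any library, and their part in the receptor level was not tested.

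Erbb2 (ENSRNOG00000006450), the partner receptor without a ligand, went the other way in acute injury. It had 1127, 806, 909 and 1593 in acute_noisy and 1069, 877 and 969 in acute_VCV, against 1668, 1636.5 and 2422 in healthy_noisy, 1279, 1766, 1404 and 1319.9 in healthy_VCV and 2118, 1305 and 1291 in control_blank. Every acute_VCV library was below every library of these 3 uninjured groups. Differences were -0.66 ± 0.22 (adjusted p = 0.0202) for acute_VCV against control_blank, -0.56 ± 0.20 (adjusted p = 0.023) against healthy_VCV, and -0.81 ± 0.20 (adjusted p = 0.0071) for acute_noisy against healthy_noisy. For acute_noisy against control_blank, where the groups overlap, the difference was -0.51 ± 0.20 (adjusted p = 0.033). That call was lost in 5 of 15 alternatives, with -0.28 (adjusted p = 0.28) without control_blank_016, -0.38 (adjusted p = 0.13) without acute_noisy_047, -0.43 (adjusted p = 0.0942) without acute_noisy_050 and -0.19 (adjusted p = 0.5) with the series 15 libraries of acute_noisy alone. Of the other calls, the one against control_blank in acute_VCV was lost without control_blank_016, acute_VCV_045 or acute_VCV_049, and the one against healthy_VCV without acute_VCV_045, acute_VCV_049 or healthy_VCV_057. Within series 15 the difference of acute_noisy from healthy_noisy was -0.49 (adjusted p = 0.57). The call between these groups was also lost with number series as a covariate and in a fit of the compared groups alone. In healthy_VCV and healthy_noisy, Erbb2 differed from control_blank by -0.10 ± 0.20 (adjusted p = 0.7) and 0.30 ± 0.22 (adjusted p = 0.3).

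**Figure D3:**
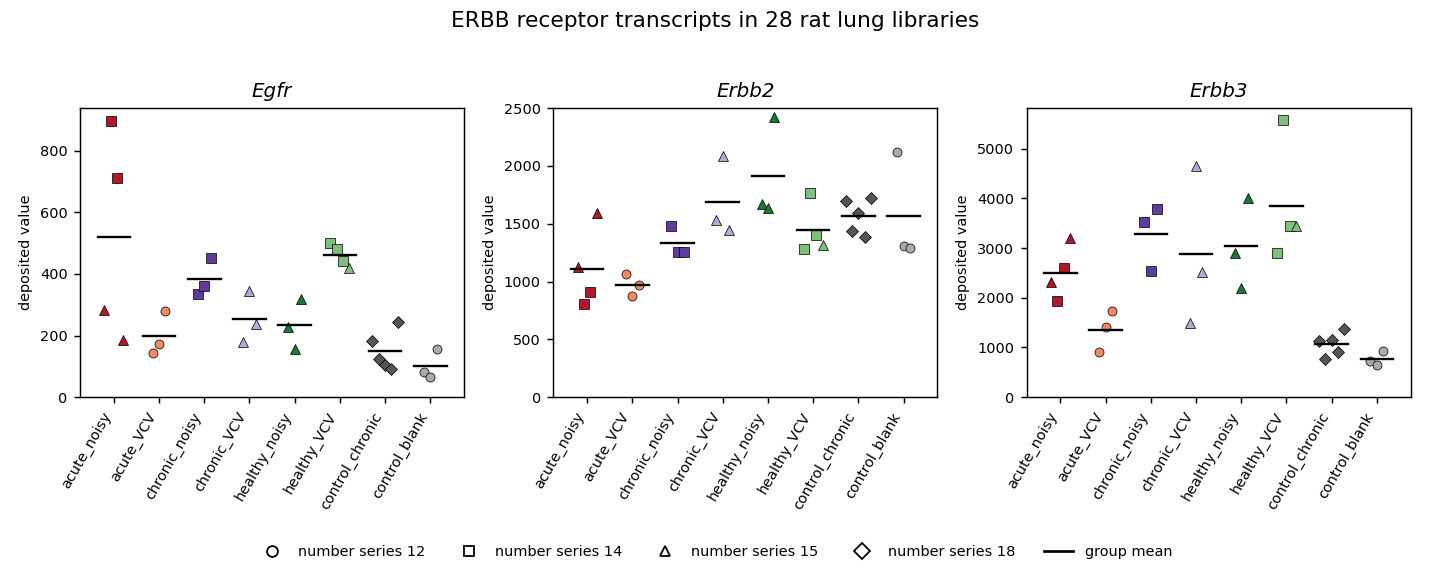
Deposited value of each receptor gene (vertical axis, linear from 0) in the 8 groups (horizontal axis), 1 point per library with its number series as the shape and the group mean as a bar. Erbb3 reaches 1369 at most in control_chronic and 922 in control_blank, and the acute_noisy libraries of series 14 and 15 stand apart for Egfr.

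The members did not respond detectably to chronic injury alone, in control_chronic against control_blank. None of the 8 tested members passed by limma or by edgeR on recovered reads, and 0 had an unadjusted p under 0.05, while 14.9% of all tested genes (9.3% higher and 5.55% lower, so that the higher share of the called genes was 62.6% by limma, beside 38.4% by edgeR with TMM scaling) were called. Areg had 35.0, 45.6, 70.0, 85.8 and 58.9 in control_chronic, across the range of control_blank, and differed by 0.19 ± 0.61 (adjusted p = 0.86). Hbegf had 200.2, 220.1, 187, 246 and 247 in control_chronic, a difference of 0.23 ± 0.33 (adjusted p = 0.66). The groups are series 18 and 12, which cannot be told apart from injury.

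Constant ventilation of chronically injured lungs gave ligand levels that differed widely between libraries. Between chronic_VCV and control_chronic 4 of 8 members rose, against 14.8% of all tested genes (6.89% higher and 7.9% lower), with a median change of 1.00 beside 0.02 over all genes. Areg had 1087 in chronic_VCV_067, 204 in chronic_VCV_073 and 63.9 in chronic_VCV_069. The last lies inside the control_chronic range of 35.0 to 85.8, and the first is the highest Areg value of the 28 libraries. Ereg and Hbegf kept that order, with 187, 46.6 and 22.3 for Ereg and 829.7, 354 and 154 for Hbegf. In control_chronic Ereg had 0, 15.9, 16.6, 18.5 and 14.99. The ligand changes were 2.09 ± 0.61 (adjusted p = 0.0243) for Areg, 2.59 ± 0.77 (adjusted p = 0.0269) for Ereg and 0.70 ± 0.33 (adjusted p = 0.16) for Hbegf. The Ereg and Areg calls depended on single libraries, with 1.01 (adjusted p = 0.23) for Areg without chronic_VCV_067, 2.21 (adjusted p = 0.053) without chronic_VCV_073 and 1.92 (adjusted p = 0.0532) without control_chronic_113. Ereg was at 1.76 (adjusted p = 0.16) without chronic_VCV_067 and 2.75 (adjusted p = 0.0569) without chronic_VCV_073, and Hbegf was called without chronic_VCV_069, at 1.305 (adjusted p = 0.00871).

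Nrg1 and Erbb3 rose in chronic_VCV too. Nrg1 had 126, 168 and 338 in chronic_VCV, against 89.0, 69.4, 68.8, 109 and 88.9 in control_chronic, a change of 1.19 ± 0.28 (adjusted p = 0.00616) that was 0.79 (adjusted p = 0.0708) without chronic_VCV_073. Erbb3 had 1485, 4652 and 2513 in chronic_VCV, against 1128, 771, 1147, 900.0 and 1369 in control_chronic, a change of 1.31 ± 0.29 (adjusted p = 0.00473) that was 0.89 (adjusted p = 0.0612) without chronic_VCV_069. For both genes the groups did not overlap. Within chronic_VCV the library highest in Areg was lowest in Erbb3, and the library lowest in Areg was highest in Erbb3. The epithelial list had sums of 19358 to 33824 in chronic_VCV and 21198 to 29035 in control_chronic, with 0 of 4 genes called. The neutrophil list had 6 of 6 genes higher, beside 6.89% of all tested genes. Its sums were 9778 to 25686 in chronic_VCV, against 866 to 2372 in control_chronic, with no overlap. Club and ciliated markers were lower, 2 of 2 and 2 of 3, with club sums of 150746 to 390586 in chronic_VCV and 385556 to 639533 in control_chronic. The part of these cells in the changes of the members was not tested.

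Under variable ventilation the chronically injured lungs held more Egfr, Erbb3 and Nrg1 than unventilated ones, and no member was called lower. Between chronic_noisy and control_chronic 3 of 8 members were called, all of them higher. The share called is close to the 37.2% of all tested genes called in either direction, of which 19.1% were higher and 18.1% lower. Areg had 55.1, 28.7 and 20.7 in chronic_noisy and Hbegf 169, 164 and 159.8, with differences from control_chronic of -0.79 ± 0.61 (adjusted p = 0.31) and -0.41 ± 0.33 (adjusted p = 0.34). The Hbegf values lay below all 5 control_chronic libraries, and those of Areg overlapped them. Egfr had 335, 362 and 451 in chronic_noisy, against 181, 125, 103, 92.5 and 243 in control_chronic, and rose by 1.44 ± 0.41 (adjusted p = 0.00917). Erbb3 had 3525, 2532 and 3779 in chronic_noisy and rose by 1.63 ± 0.29 (adjusted p = 0.000381). For both receptors all 3 ventilated lungs were above all 5 unventilated ones. Nrg1 rose by 0.77 ± 0.28 (adjusted p = 0.0323), a call that was lost without chronic_noisy_075, chronic_noisy_084, control_chronic_114 or control_chronic_115. Neutrophil markers moved in the same comparison, with 6 of 6 genes higher and sums of 17071 to 31737 in chronic_noisy, against 866 to 2372 in control_chronic. Of the fibroblast list 4 of 5 were higher and 1 lower, of the epithelial list 3 of 4 were lower, and of the club and ciliated lists 2 of 2 and 2 of 3 were lower. The part of these cells in the receptor and Nrg1 changes was not tested. The Egfr call was lost without chronic_noisy_084, at 1.31 (adjusted p = 0.0543). These groups are series 14 and 18, and chronic_VCV is series 15, so series cannot be told apart from ventilation in chronically injured lungs.

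The design asks most directly whether the mode of ventilation matters. In chronically injured lungs Areg was lower with variable than with constant tidal volumes, at -2.88 ± 0.69 (adjusted p = 0.03), and it was the 1 member of 8 called, against 2.43% of all tested genes (0.563% higher and 1.86% lower). The groups did not overlap, at 20.7 to 55.1 in chronic_noisy and 63.9 to 1087 in chronic_VCV, but the gap between them was 55.1 to 63.9. The call was lost without chronic_VCV_067, at -1.803 (adjusted p = 0.2), without chronic_VCV_073, at -3.01 (adjusted p = 0.0568), and without chronic_noisy_079 or chronic_noisy_084. With number series as a covariate it was -2.99 (adjusted p = 0.35). All chronic_noisy libraries are of series 14 and all chronic_VCV libraries of series 15, so mode and series cannot be told apart here. The covariate is set only by other groups, those that hold libraries of both series. Hbegf and Ereg were at -1.11 ± 0.37 (adjusted p = 0.0926) and -1.88 ± 0.87 (adjusted p = 0.19).

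After acute injury 1 of 8 members was called between acute_noisy and acute_VCV, against 24.2% of all tested genes (11.9% higher and 12.3% lower). This was Erbb3, at 0.92 ± 0.31 (adjusted p = 0.0327), and it was not called with the acute_noisy libraries of either series alone, at 0.78 (adjusted p = 0.0992) for series 14 and 1.06 (adjusted p = 0.0599) for series 15. Nor was it called without acute_VCV_040, acute_VCV_045, acute_noisy_050 or acute_noisy_053. All acute_VCV libraries are of series 12 and all acute_noisy libraries of series 14 or 15, so mode and series cannot be told apart here. Areg differed by -1.05 ± 0.64 (adjusted p = 0.23), Hbegf by -0.54 ± 0.35 (adjusted p = 0.26) and Ereg by -0.18 ± 0.81 (adjusted p = 0.89). Egfr stood at 1.16 ± 0.43 (adjusted p = 0.0508), with 2.06 (adjusted p = 0.00121) for the series 14 libraries of acute_noisy and 0.26 (adjusted p = 0.7) for those of series 15. Between healthy_noisy and healthy_VCV 0 of 8 members passed by limma and by edgeR, with 1 at an unadjusted p under 0.05, against 10.3% of all tested genes (4.31% higher and 6.01% lower). Areg was at -1.09 ± 0.64 (adjusted p = 0.24) there and Egfr at -1.03 ± 0.43 (adjusted p = 0.1).

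Whether the mode effect differed with injury was tested directly. The difference between the mode effect after acute injury and that without injury was called for 2 of 8 members, Egfr at 2.19 ± 0.61 (adjusted p = 0.00717) and Erbb3 at 1.26 ± 0.43 (adjusted p = 0.025), against 39% of all tested genes (19.6% higher and 19.4% lower). For Areg it was 0.04 ± 0.91 (adjusted p = 0.98). The acute_VCV libraries are all of series 12 and the other groups of this difference of series 14 or 15. Series cannot be told apart from mode and injury here. After chronic injury, against no injury, 1 of 8 was called, Egfr at 1.65 ± 0.63 (adjusted p = 0.0494), against 29.7% of all tested genes (15.7% higher and 14% lower), and with number series as a covariate this turned to -0.28 (adjusted p = 0.89). That call was lost in 15 of 20 alternatives. The Areg value was -1.79 ± 0.94 (adjusted p = 0.15). The effect of constant ventilation after chronic injury did not differ by the test from that without injury for any of the 8 members, against 23.9% of all tested genes (9.92% higher and 14% lower, so that the higher share of the called genes was 41.5% by limma, beside 53.3% by edgeR with TMM scaling), although Areg stood at 1.73 ± 0.89 (adjusted p = 0.15) and Egfr at -1.46 ± 0.59 (adjusted p = 0.0716), and 3 members had an unadjusted p under 0.05. Without chronic_VCV_069 it was called for 5 members, among them Areg at 2.69 (adjusted p = 0.0177) and Egfr at -1.71 (adjusted p = 0.0476). On recovered reads edgeR called Areg in that difference. For variable ventilation the same difference was called for 0 of 8 by limma and edgeR, with 0 at an unadjusted p under 0.05, against 2.66% of all tested genes (0.966% higher and 1.69% lower, so that the higher share of the called genes was 36.4% by limma, beside 53.5% by edgeR with TMM scaling).

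Chronic injury among ventilated lungs was called for 0 of 8 members in either mode by limma, against 2.46% of all tested genes (1.64% higher and 0.818% lower) for chronic_VCV over healthy_VCV and 4.69% of all tested genes (2.27% higher and 2.42% lower, so that the higher share of the called genes was 48.4% by limma, beside 61.8% by edgeR with TMM scaling) for chronic_noisy over healthy_noisy. Areg differed by 1.92 ± 0.64 (adjusted p = 0.0823) in the constant mode and 0.13 ± 0.69 (adjusted p = 0.92) in the variable mode. On recovered reads edgeR called Areg in the constant mode, and with the authors' scaling Hbegf too, and none of the 8 in the variable mode. At an unadjusted p under 0.05 there were 4 members in the constant and 1 in the variable mode. Areg and Hbegf were both called without chronic_VCV_069, Areg at 2.88 (adjusted p = 0.0127).

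Genes that ERBB and MAPK signalling is known to switch on were counted in the same comparisons, each beside the share of all genes called. Of the list of targets 6 of 11 tested genes were higher and 1 lower in acute_VCV than in control_blank (median 1.67, all genes 0.07), where 20.6% of all genes were higher and 16.7% lower. Fosl1, an AP-1 subunit, averaged 1397 ± 146 (SD, n = 3) in acute_VCV and 8.22 ± 2.12 (SD, n = 3) in control_blank, a change of 7.26 ± 0.64 (adjusted p = 1.88e-07). Plaur, the urokinase receptor, changed by 3.51 ± 0.47 (adjusted p = 1.15e-05) and the growth regulator Myc by 2.38 ± 0.30 (adjusted p = 6.84e-06). In acute_noisy over control_blank 7 of the 11 were higher and 1 lower (median 1.64), where 59.8% of all genes were called, with Fosl1 at 6.22 ± 0.60 (adjusted p = 1.27e-07). In acute_noisy over healthy_noisy 4 were higher and 1 lower (median 0.96), where 26.7% of all genes were called. Against healthy_VCV the list in acute_VCV had 6 higher and 1 lower (median 0.95), beside 52.5% of all genes called, with Fosl1 at 5.92 ± 0.60 (adjusted p = 6.99e-08), Ier3 at 1.68 ± 0.34 (adjusted p = 0.000226) and Myc at 1.71 ± 0.29 (adjusted p = 3.22e-05). In healthy_VCV over control_blank 3 were higher and 1 lower (median 0.70), below the 57.4% of all genes called, the lower one being Etv4, an ETS factor, at -2.24 ± 0.28 (adjusted p = 2.04e-06). In chronic_VCV over control_chronic 5 of 11 were higher and 0 lower (median 1.13, all genes 0.02), where 6.89% of all genes were higher. Between chronic_noisy and chronic_VCV 5 of 11 were lower (median -1.07, all genes 0.02), where 1.86% of all genes were lower. These were led by Fosl1 at -3.54 ± 0.64 (adjusted p = 0.0122) and Egr1, an immediate early factor, at -3.05 ± 0.79 (adjusted p = 0.0416). The chronic_VCV libraries differed widely, with list sums of 13851 to 43450 (median 15937.5). Sums were 8967 to 10202 in chronic_noisy and 9932 to 13387 in control_chronic. The 3 groups are series 15, 14 and 18, so series cannot be told apart from ventilation or its mode here.

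Inhibitors of the pathway were counted in the same way. In the negative feedback list 9 of 15 tested genes were higher and 1 lower in acute_VCV than in control_blank (median 0.80, all genes 0.07), where 37.3% of all genes were called and 20.6% were higher. In healthy_VCV 10 of 15 were higher than in control_blank and 0 lower (median 0.91), where 57.4% of all genes were called and 29.3% were higher. Dusp4, a MAPK phosphatase, changed by 1.95 ± 0.33 (adjusted p = 8.61e-05) in acute_VCV and 2.32 ± 0.30 (adjusted p = 3.00e-06) in healthy_VCV. Between acute_VCV and healthy_VCV 4 were higher and 7 lower, where 52.5% of all genes were called. Lrig1, which promotes the breakdown of ERBB receptors, averaged 568 ± 72.4 (SD, n = 3) in acute_VCV and 1720.3 ± 149 (SD, n = 4) in healthy_VCV, a change of -1.60 ± 0.14 (adjusted p = 1.73e-08). Dusp5, a phosphatase of nuclear ERK, was higher in acute_VCV by 1.34 ± 0.36 (adjusted p = 0.00351).

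Of sheddases and their regulators 5 of 10 tested genes were higher and 0 lower in acute_VCV than in control_blank (median 0.70), where 37.3% of all genes were called and 20.6% were higher. Adam9 changed by 1.67 ± 0.30 (adjusted p = 0.000193), and Rhbdf2, the iRhom protein that brings ADAM17 to the cell surface, by 1.46 ± 0.23 (adjusted p = 4.27e-05). Against healthy_VCV Rhbdf2 was 1.11 ± 0.21 (adjusted p = 0.000137) higher in acute_VCV, while Adam10 was at -1.44 ± 0.34 (adjusted p = 0.00112). Adam17 was higher in acute_noisy than in healthy_noisy, by 0.89 ± 0.18 (adjusted p = 0.00161). Among adaptors and kinases 5 of 12 tested genes were higher and 2 lower in acute_VCV than in control_blank (median 0.29), beside the same 37.3% of all genes called, with Stat3 at 1.64 ± 0.23 (adjusted p = 1.54e-05) and the adaptor Shc1 at 1.09 ± 0.15 (adjusted p = 9.88e-06). Of the other ligands, Egf averaged 40.5 ± 1.47 (SD, n = 3) in acute_VCV, 139 ± 31.2 (SD, n = 4) in healthy_VCV and 38.4 ± 4.54 (SD, n = 3) in control_blank. It was lower in acute_VCV than in healthy_VCV, at -1.73 ± 0.29 (adjusted p = 3.05e-05), and higher in healthy_VCV than in control_blank, at 1.81 ± 0.29 (adjusted p = 1.93e-05). Both acute_VCV and control_blank are series 12, and healthy_VCV is series 14 and 15. In the differences with healthy_VCV given here, series cannot be told apart from injury or ventilation. Nrg2 was lower in acute_VCV than in control_blank, at -1.41 ± 0.33 (adjusted p = 0.00174). Epgn, Nrg3, Nrg4 and Erbb4 were not found by symbol or synonym among the 17002 genes, so they were not tested.

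Ordered by group mean, Areg ran from acute_VCV at 642 ± 187 (SD, n = 3) through chronic_VCV at 452 ± 555 (SD, n = 3) and acute_noisy at 321 ± 130.1 (SD, n = 4) to healthy_VCV at 67.8 ± 29.01 (SD, n = 4). Next came control_blank at 59.1 ± 34.9 (SD, n = 3), control_chronic at 59.1 ± 19.99 (SD, n = 5), chronic_noisy at 34.8 ± 18.0 (SD, n = 3) and healthy_noisy at 31.3 ± 12.9 (SD, n = 3). Of these neighbours acute_noisy and healthy_VCV had ranges that did not overlap, and all other neighbours overlapped. Hbegf had acute_VCV, acute_noisy and chronic_VCV as its highest 3 groups and healthy_noisy as its lowest, and Ereg the same highest 3 with control_blank lowest. Every pair of neighbouring groups overlapped for Ereg, Hbegf, Tgfa, Nrg1, Btc, Egfr and Erbb2. For Erbb3, acute_noisy and acute_VCV did not overlap, and healthy_VCV stood highest at 3842 ± 1186 (SD, n = 4).

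Across the 28 libraries Areg ranked alike with Ereg (Spearman 0.77) and Hbegf (0.76), and not with Egfr (-0.00) or Erbb3 (-0.19). After the group means were taken off the log2 values, Pearson's r was 0.63 with Ereg, 0.66 with Hbegf and -0.45 with Erbb3. Areg spread most within chronic_VCV, at 63.9 to 1087, so the 3 libraries of that group weigh heavily in these r values. They were not computed without that group. These are descriptions over libraries that share groups, number series and size factors. Among 9663 genes with a mean of at least 50, those ranked most like Areg were Atf3 (0.87), a stress-induced factor of the ATF family, F3 (0.86), tissue factor, Dusp9 (0.81), a MAPK phosphatase, Btg3 (0.80) and Tnfrsf12a (0.79), the receptor for TWEAK. Those most like Hbegf were Atf3 (0.87), Rnd1 (0.85) and Ptbp1 (0.84), and those most like Ereg Myc (0.90), Rassf1 (0.88) and Plaur (0.85). For Egfr they were Ptprk (0.98), Gtf3c4 (0.98) and Sel1l (0.97), and for Erbb3 they included Edem1 (0.95) and Arhgap10 (0.94). The remaining members had Rrbp1 (0.81), Agpat9 (0.80) and Adipor1 (0.80) for Tgfa, Smg5 (0.94), Akap1 (0.89) and Slc26a9 (0.89) for Nrg1, and Slc37a1 (0.89), Zmiz2 (0.88) and Kctd11 (0.86) for Erbb2.

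**Figure D4:**
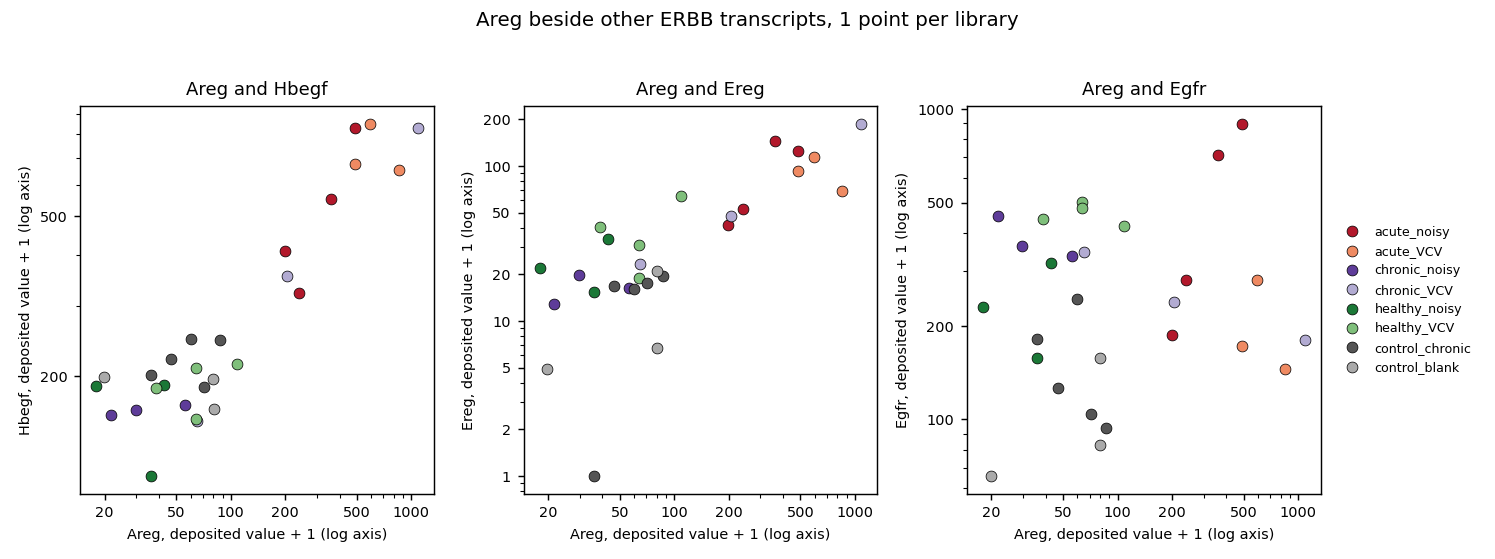
Areg (horizontal axis, deposited value plus 1, log scale) against Hbegf, Ereg and Egfr (vertical axes, same scale), 1 point per library coloured by group. Libraries high in Areg are also high in Hbegf and Ereg (Spearman 0.76 and 0.77), while Areg and Egfr show no common order (-0.00).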

How the data were processed

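The authors deposited 1 table of signal, the reads of each gene scaled by a size factor of its library, with genes of Ensembl version 67 per the file header. CASAVA 1.8.0, BWA, bedtools 2.11, DESeq 1.8.3 and build rn4 are named in the submitters' processing notes, without role or order. Per the labels' protocols, libraries came from oligo(dT)-selected RNA by the strand-specific dUTP method. How strand and shared reads were counted is not given in the sources used here.

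In each library at least 99.994% of values were whole multiples of 1 step within 0.1 read, which gives recovered reads. No replicates held identical values, and a chi-square test of replicate pairs gave at least 13.5 per gene. Genes with a mean of at least 10 were tested (14908) as log2(deposited value + 1) in limma 3.58.1 (R 4.3.3), with a mean per group over all 28 libraries, an intensity trend and a robust prior, two-sided. A fold on this scale understates the change of low genes. On recovered reads edgeR 4.0.16 quasi-likelihood tests with TMM scaling called 332 to 8987 genes over the comparisons, where limma called 362 to 8911. Where the higher share of the called genes differed by over 10 percentage points between them, both shares are given. The procedure was tested on simulated data. The members and gene lists were chosen with earlier results of these data known. All 9 members are named. From each list the up to 3 largest called changes of a comparison could be named, and the genes most like a member were the 3 (5 for Areg) of highest Spearman correlation, of which 1 is not reported here. Marker lists were fixed by cell type. The text gives the epithelial, neutrophil, club, ciliated and fibroblast lists, and the closing section gives all lists for acute_VCV against control_blank. Promoter windows are from RefSeq, build GRCr8, matched by symbol for 6 of 9 members. The tables were made in Python 3.11.15 (pandas 2.3.3, numpy 2.4.6) and the plots with matplotlib 3.10.9.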

Additional observations from a re-analysis of the deposited data

Results flagged for a closer look

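In control_chronic_113, the library of lowest depth, Ereg was at 0, far from the other 4 control_chronic libraries at 15.9, 16.6, 18.5 and 14.99. With 6024093 reads, a count of 0 allows up to 3 reads, which is a deposited value of up to 9.53 there. It was 1 flag among 27 checks, each of 1 gene in 1 group of 4 or 5 libraries, of which chance flags about 1 in 20. The checks share libraries. Without that library the chronic_VCV change of Ereg over control_chronic was 1.77 (adjusted p = 0.0493).

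The effect of variable over constant tidal volume on Egfr differed between acutely injured and uninjured lungs by 2.19 ± 0.61 (adjusted p = 0.00717) on the log2 scale. It was 1.16 ± 0.43 (adjusted p = 0.0508) after acute injury and -1.03 ± 0.43 (adjusted p = 0.1) without injury. In acute_noisy Egfr had 711 to 898 in series 14 but 186 to 281 in series 15. The difference in mode effect was called for 2 of 8 members, beside 39% of all tested genes. For Erbb3 the same difference was 1.26 ± 0.43 (adjusted p = 0.025), and it was not called without acute_VCV_040, healthy_VCV_057 or healthy_noisy_061, at 0.99 (adjusted p = 0.0953), 1.06 (adjusted p = 0.058) and 1.04 (adjusted p = 0.0865). Between chronically injured and uninjured lungs the difference in mode effect on Egfr was 1.65 ± 0.63 (adjusted p = 0.0494). Egfr was the 1 of 8 members called there, beside 29.7% of all tested genes. The groups in these tests are spread unevenly over the number series, which cannot be told apart from mode and injury. This last call was lost in 15 of 20 alternatives.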

How the results depend on the processing

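Alternatives were a pseudocount of 10, no filter, quantile normalization, fits of the compared groups alone, edgeR with either scaling, leaving out each library, and number series as a covariate or series 15 alone. Without control_chronic_113 and control_chronic_114, and acute_noisy from 1 series, were chosen after seeing the data. Over 2216 alternative values of single members, 90 lost and 47 gained a call, 1 called value changed sign, and the others kept their side of the threshold, although members that were not called could change sign. The reversed one was Egfr in the chronic mode difference (-0.28 with the covariate, 1.65 without). The cause was not tested. Quantile normalization moved the median of all genes from -0.03 to -0.13 for healthy_VCV against control_blank, and no called member changed sign with it.

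Counts of called members that moved by over 1.5 times were as follows. With the compared groups alone they were 1 for healthy_noisy against control_blank, 2 for chronic_VCV against control_chronic, 0 for acute_noisy against healthy_noisy, 1 for chronic_VCV against healthy_VCV, 1 for healthy_noisy against healthy_VCV, 0 for acute_noisy against acute_VCV and 0 for chronic_noisy against chronic_VCV. They were 2 for the chronic mode difference and 1 for the constant ventilation difference. By edgeR with TMM they were 1 for healthy_noisy against control_blank, 1 for chronic_VCV against healthy_VCV, 2 for acute_noisy against acute_VCV, 2 for chronic_noisy against chronic_VCV, 0 for the chronic mode difference and 1 for the constant ventilation difference. By edgeR with the authors' scaling they were 2, 2, 2 and 1 for chronic_VCV against healthy_VCV, acute_noisy against acute_VCV, chronic_noisy against chronic_VCV and the constant ventilation difference. A pseudocount of 10 gave 2 for acute_noisy against acute_VCV, and no filter gave 0 for the chronic mode difference. With the series covariate, acute_noisy against healthy_noisy gave 1, chronic_noisy against chronic_VCV 0 and the chronic mode difference 0. Series 15 alone gave 0 for acute_noisy against healthy_noisy. The series 15 libraries of acute_noisy gave 5 against control_blank and 0 against acute_VCV, and chronic_VCV against control_chronic gave 2 without control_chronic_113 and control_chronic_114.

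Leaving out 1 library in turn gave 4 to 5 called members for healthy_VCV, 1 to 3 for healthy_noisy, 5 to 7 for acute_VCV and 7 to 8 for acute_noisy against control_blank. It gave 1 to 4 for chronic_VCV and 1 to 3 for chronic_noisy against control_chronic, 3 to 5 for acute_VCV against healthy_VCV, 3 to 5 for acute_noisy against healthy_noisy and 0 to 2 for chronic_VCV against healthy_VCV. It gave 0 to 2 for acute_noisy against acute_VCV and 0 to 2 for chronic_noisy against chronic_VCV. For the acute and chronic mode differences it gave 1 to 2 and 0 to 4, and for the constant ventilation difference 0 to 5. No paired analysis was possible because no replicate number occurs in more than 1 group. Depth limits Btc, at 0 to 19 reads, and Ereg, at 0 to 173 reads. It also limits the low values of Areg, which had 11 reads in control_chronic_113 and 13 in healthy_noisy_029.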

Other observations

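Markers of airway secretory (club) cells and of ciliated cells were lower in each ventilated group than in unventilated lungs of the same injury state or, for acute injury, of uninjured rats. Median club sums were 132238 in acute_noisy, 260318 in acute_VCV and 169828 in healthy_VCV, against 577704 in control_blank. The part of these cells in the ligand changes was not tested. In acute_VCV against control_blank the club list had 0 higher and 2 lower of 2, with sums of 186041 to 273758 against 496765 to 1319040.0, and the ciliated list had 0 higher and 3 lower of 3. The share of all genes called in that comparison was 37.3%, against which these counts are read. The alveolar type 1 list had 0 higher and 2 lower of 5 and the alveolar type 2 list 0 higher and 0 lower of 5. The epithelial list had 4 higher and 0 lower of 4 and the neutrophil list 6 higher and 0 lower of 6. Macrophage markers had 2 higher and 0 lower of 3, endothelial markers 2 higher and 0 lower of 4, fibroblast markers 1 higher and 0 lower of 5 and mesothelial markers 0 higher and 1 lower of 3. Mast cell and basophil markers, from cells that can also make amphiregulin, had 0 higher and 0 lower of 5, and the list of innate lymphoid and T cells 0 higher and 0 lower of 5. Schwann cell and nerve markers had 0 higher and 1 lower of 2, and cardiac muscle markers of the pulmonary veins 0 higher and 1 lower of 5.

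The cardiac muscle sum varied within groups that share a treatment, at 231 to 7939.9 in acute_noisy and 1681 to 8759 in healthy_VCV, against 9077 to 15538 in control_blank. Its part in the level of Nrg1, Erbb2 or Erbb3, which cardiac tissue also uses, was not tested.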
